A study of Mus musculus with 8 samples.

Results

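Imprinted genes are genes transcribed mainly from 1 parental allele. The 33 described here were picked by symbol, as genes known to be imprinted in the mouse or lying beside such genes, and all 33 were found among the 55385 genes of the deposited table. Their levels were compared between 2 groups of 4 libraries each, made from neural stem and progenitor cells (NSPCs). The cells had been isolated from cortical tissue at postnatal day 7 by fluorescence-activated sorting. The iKO group was Nestin-CreERT2; Ash2l f/f; tdTomato, and the WT group was Nestin-CreERT2; tdTomato, so both carried the inducible recombinase and the reporter, and the floxed allele set them apart. The recombinase is driven by the Nestin promoter, which limits deletion to cells that use it, and nothing in the labels links each library to a single animal, so the p-values reflect how far these libraries spread, which may be technical variation alone. Abundances are in TPM, the share of a transcript in all transcripts of a library, a unit that accounts for transcript length, so levels of different genes can be set side by side.

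Imprinting begins in the germ line, where control regions near imprinted genes acquire DNA methylation on the maternal or the paternal copy. After fertilization zinc finger proteins such as ZFP57 hold that methylation in place, and the copy without it often carries methylation of histone H3 at lysine 4, the mark made by complexes that contain ASH2L. Many imprinted genes act on growth, and several form clusters in which a long noncoding RNA is made from 1 parental copy and protein-coding genes from the other. In the brain, imprinted genes are known for roles in progenitor proliferation, neuronal survival and behaviour. The sequencing did not separate parental alleles, so each value is the sum of both copies.

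The targeted gene Ash2l stood at 7.13 ± 0.714 TPM in iKO against 17.6 ± 1.33 TPM in WT (SD, n = 4), so that the fitted log2 fold change was -1.20 (limma, SE 0.0797, adjusted p = 3.82e-06). Every marker of NSPCs on a list of 15 was above 0, 14 reached the filter described below, 3 rose and 7 fell, and their summed level was 4301 to 4391 TPM in iKO against 5200 to 5313 TPM in WT. Summed markers of astrocytes (12 genes) were at 5791 to 6018 TPM in iKO against 8500 to 8778 TPM in WT, and 10 of the 12 fell and 1 rose. Summed markers of endothelial cells (10 genes) were at 923 to 963 TPM in iKO against 526 to 547 TPM in WT, and 9 of the 10 rose. Summed markers of pericytes and smooth muscle (9 genes) were at 984 to 1037 TPM in iKO against 842 to 894 TPM in WT (4 rose, 3 fell). Those of fibroblasts and leptomeninges (10 genes) were at 137 to 153 TPM against 179.7 to 193 TPM (3 rose, 4 fell), and those of choroid plexus (7 genes) at 35.2 to 37.6 TPM against 45.2 to 47.2 TPM (0 rose, 2 fell). Summed markers of microglia (8 genes) were at 487 to 499 TPM in iKO and, in WT, at 609.8 to 655 TPM (0 rose, 6 fell). Those of neuroblasts (12 genes) were at 3002 to 3115 TPM and 2857 to 2946 TPM (8 rose, 3 fell), and those of red blood cells (6 genes) at 720.2 to 840.1 TPM and 69.9 to 81.0 TPM (5 rose, 0 fell). Mean marker sums in iKO against WT were 1140 against 954 TPM for transit-amplifying cells (8 genes, 2 rose, 1 fell). For mature neurons (10 genes, 3 rose, 3 fell) they were 463 against 431 TPM. Oligodendrocytes (6 genes, 3 rose, 2 fell) had 226 against 201 TPM. Ependymal cells (6 genes, 2 rose, 3 fell) had 193 against 180 TPM. Sums for oligodendrocyte precursors (6 genes, 1 rose, 4 fell) overlapped, at means of 1687 and 1695 TPM. Of all tested genes 20.7% rose and 31.9% fell. No gene of these lists was at 0 over all libraries, and their parts in the results were not tested. In bulk RNA fewer cells of a type and less RNA per cell cannot be told apart. A sex score, the mean log2(TPM + 1) of 4 Y-linked genes minus that of Xist, lay between -0.824 and -0.262 in iKO and between 0.565 and 1.01 in WT, so group and score cannot be told apart. With the score as a covariate limma called 423 of 16413 genes and 0 of 27 tested imprinted genes, of which 6 (H19, Peg3, Snrpn, Mest, Nnat and Mcts2) had an unadjusted p under 0.05, as did 3018 of all 16413 genes.

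Genes were tested with limma on log2(TPM + 1) when 4 or more libraries had 1 TPM or more, and were called at a Benjamini-Hochberg adjusted p under 0.05. Of the 33 imprinted genes, 27 reached this filter, and 17 of them (63.0%) changed between iKO and WT, beside 52.6% of all 16413 genes tested. In iKO 5 rose (Igf2, Airn, Rian, Mcts2 and Zrsr1) and 12 fell (Igf2r, Meg3, Peg3, Snrpn, Ndn, Mest, Grb10, Nnat, Blcap, Kcnq1ot1, Sgce and Impact), where 20.7% of all tested genes rose and 31.9% fell. The median log2 fold change was -0.09 over the tested imprinted genes and -0.06 over all tested genes, and the median absolute change was 0.21 against 0.22. The values of iKO and WT did not overlap for 15 of the 27, beside 49.2% of all tested genes. The typical size of a change was thus close to that over the whole transcriptome. Rescaling moved the split of calls: with trimmed mean factors or with quantile normalization, 6 imprinted genes rose and 9 fell, and among all called genes the share that rose went from 39.3% to 51.1% and 49.7%. The median of all genes moved from -0.06 to 0.00 under both.

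**Figure D1:**
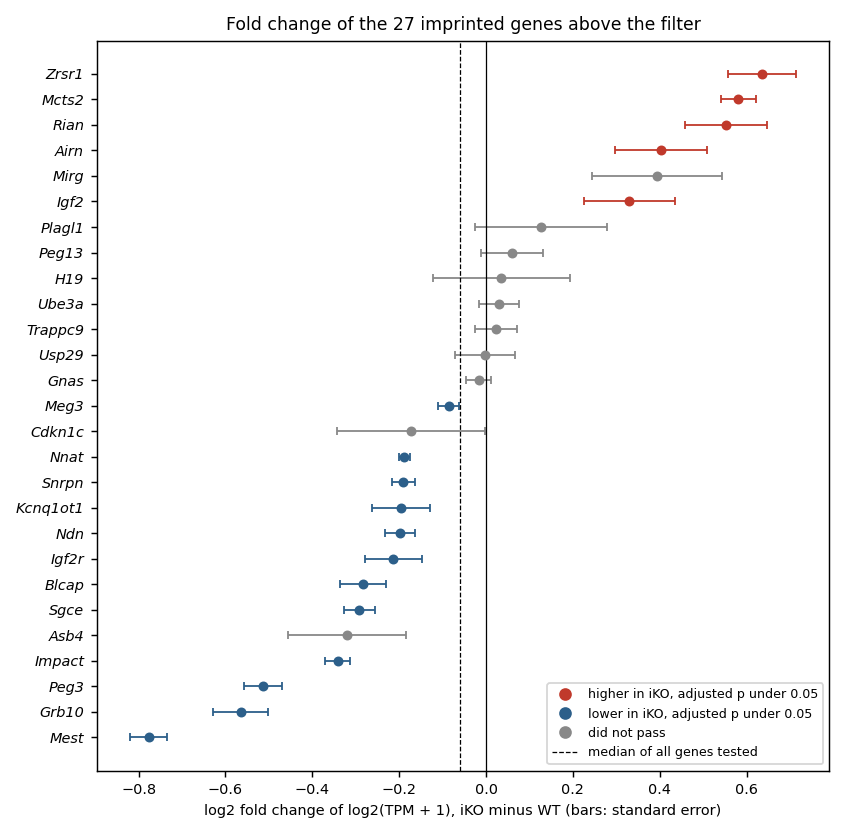
Log2 fold change (iKO minus WT, on log2(TPM + 1), with its standard error) of the 27 imprinted genes tested, ordered by value, with higher calls in red, lower calls in blue, genes that did not pass in grey and the median of all tested genes (-0.06) as a dashed line. The values run from -0.78 for Mest to 0.64 for Zrsr1.

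The 300-base windows around the starts (250 bases before, 50 after) of 5 imprinted genes are printed 5′ to 3′ as RefSeq gives them on GRCm38.p6. They were chosen because, among the 27 genes tested, Mcts2 and Zrsr1 had the highest log2 fold changes, Mest and Peg3 were among the 3 lowest, and Nnat was the most abundant member. Capitals mark TGCCGC, the 6-base core of the motif that ZFP57 binds when methylated, or its reverse complement GCGGCA on the other strand.
Mcts2, chr2:152686898-152687197, plus strand: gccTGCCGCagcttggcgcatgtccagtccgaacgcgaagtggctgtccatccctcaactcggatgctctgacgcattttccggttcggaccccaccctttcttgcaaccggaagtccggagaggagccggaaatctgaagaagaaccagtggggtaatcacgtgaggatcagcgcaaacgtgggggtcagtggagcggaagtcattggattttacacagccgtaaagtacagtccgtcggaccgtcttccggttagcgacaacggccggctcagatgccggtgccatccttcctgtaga
Zrsr1, chr11:22971755-22972054, plus strand: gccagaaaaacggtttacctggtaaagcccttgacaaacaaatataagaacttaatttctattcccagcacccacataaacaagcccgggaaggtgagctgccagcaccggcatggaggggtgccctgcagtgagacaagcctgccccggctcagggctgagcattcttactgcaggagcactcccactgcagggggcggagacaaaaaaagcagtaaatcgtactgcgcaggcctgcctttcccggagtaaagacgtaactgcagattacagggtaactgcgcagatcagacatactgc
Nnat, chr2:157559828-157560127, plus strand: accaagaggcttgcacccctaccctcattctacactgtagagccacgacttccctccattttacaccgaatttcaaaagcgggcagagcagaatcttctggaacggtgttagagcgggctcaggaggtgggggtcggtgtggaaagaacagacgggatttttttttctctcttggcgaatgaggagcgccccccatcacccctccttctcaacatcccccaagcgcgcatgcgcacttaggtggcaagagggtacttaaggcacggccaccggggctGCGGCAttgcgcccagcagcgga
Mest, chr6:30737800-30738099, plus strand: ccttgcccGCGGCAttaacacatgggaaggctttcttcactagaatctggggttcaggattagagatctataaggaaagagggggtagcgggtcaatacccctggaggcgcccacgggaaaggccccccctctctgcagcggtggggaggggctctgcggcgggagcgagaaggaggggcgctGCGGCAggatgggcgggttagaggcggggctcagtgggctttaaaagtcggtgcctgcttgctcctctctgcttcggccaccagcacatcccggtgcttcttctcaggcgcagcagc
Peg3, chr7:6730370-6730669, minus strand: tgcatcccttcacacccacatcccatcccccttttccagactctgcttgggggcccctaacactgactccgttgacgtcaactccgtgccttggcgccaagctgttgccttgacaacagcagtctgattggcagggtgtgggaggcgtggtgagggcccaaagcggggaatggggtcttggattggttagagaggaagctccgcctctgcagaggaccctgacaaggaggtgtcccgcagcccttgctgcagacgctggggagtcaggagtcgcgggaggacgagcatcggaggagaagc
The printed window of Mest held 2 matches, those of Mcts2 and Nnat 1 each, and those of Zrsr1 and Peg3 0. Mest also had a window farther upstream, not printed, with 0 matches and 8 CpG dinucleotides. Grb10, also among the 3 lowest, was not printed. It had a window with 1 match and 45 CpG dinucleotides and another with 0 matches and 9. CpG dinucleotides numbered 25 in the window of Mcts2, 17 in those of Nnat and Mest, 13 in that of Peg3 and 10 in that of Zrsr1. RefSeq windows were matched for 26 of the 33 genes, 41 windows in all, and 11 of these (26.8%) held the motif on either strand, against 11.6% of 32851 windows of all genes. The motif contains a CpG, and the windows of the imprinted genes held more CpG dinucleotides, with a median of 13 against 7, whose part in the difference was not tested. Near-coincident windows of 1 gene, as for Mest and Gnas, were counted separately. A match describes the letters and is not evidence of binding. Among the 5 printed genes, those with the motif in the window rose (Mcts2) and fell (Mest and Nnat).

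Mest (ENSMUSG00000051855.15, chromosome 6), a paternally expressed gene for a hydrolase of the endoplasmic reticulum that promotes growth, had the lowest log2 fold change among the 27 genes tested. It stood at 42.2, 42.7, 46.5 and 45.8 TPM in the iKO libraries and at 74.7, 78.6, 79.2 and 73.7 TPM in the WT libraries. Every iKO library lay far below every WT library. The means were 44.3 ± 2.18 and 76.6 ± 2.76 TPM (SD, n = 4), and Mest fell by 0.78 on the log2 scale (SE 0.0428, adjusted p = 1.27e-06). Its exons overlap those of Copg2 on the opposite strand in the GENCODE annotation, and Copg2, a coatomer subunit gene, stood at 19.3 TPM in iKO against 19 TPM in WT (adjusted p = 0.844), though the authors' deposited table called it higher (0.17, adjusted p = 0.00372). Reads from the overlap cannot be assigned to either gene.

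Grb10 (ENSMUSG00000020176.17, chromosome 11) encodes an adaptor that inhibits signalling from the insulin and IGF1 receptors, and is made from the maternal copy in most tissues and from the paternal copy in neurons. The iKO libraries held 13.7, 13.3, 11.5 and 13.5 TPM and the WT libraries 18.8, 19.7, 20.9 and 19.3 TPM. All iKO values were lower than all WT values. Grb10 fell from 19.7 ± 0.926 to 13 ± 1.01 TPM (SD, n = 4), which is -0.56 on the log2 scale (SE 0.0629, adjusted p = 8.70e-05).

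Peg3 (ENSMUSG00000002265.17, chromosome 7) encodes a paternally expressed zinc finger protein known for effects on growth and maternal care. Its levels were 17.1, 17.5, 18.4 and 17.2 TPM in iKO and 24.5, 26.8, 25.4 and 25.0 TPM in WT. The groups stood clearly apart. Peg3 fell by 0.51 on the log2 scale (means 17.5 ± 0.598 and 25.5 ± 0.999 TPM, SD, n = 4; SE 0.0436, adjusted p = 1.70e-05). Usp29, a deubiquitinase-family gene that is also paternally expressed, starts head to head with Peg3, and their 2 promoter windows share 263 bases on opposite strands. It held 11.3, 11.8, 12.8 and 13.7 TPM in iKO and 11.7, 13.3, 11.8 and 12.8 TPM in WT, overlapping throughout, and did not pass (log2 fold change -0.00, SE 0.0692, adjusted p = 0.986). Zim1, a maternally expressed zinc finger gene of the same cluster, was under 1 TPM in all libraries, at 0.221, 0.940, 0.258 and 0.978 TPM in iKO and 0.126, 0.113, 0.189 and 0.133 TPM in WT. Its iKO values were all higher, by a narrow margin in 2 libraries and a wide one in iKO 2 and iKO 4. A difference of 0.45 in mean log2(TPM + 1) gave an exact two-sided permutation p of 0.0286, the smallest that 4 against 4 allows. Without WT 1, WT 2, WT 3 or WT 4 the exact permutation p for Zim1 was 0.143, 0.171, 0.0857 or 0.114, and without any single iKO library it was 0.0286. The groups stayed apart in each case. With 1 library left out the groups are unequal and the test is not symmetric. These values therefore do not show that the separation rests on the WT libraries.

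Among the insulin-like growth factor genes, Igf2 (ENSMUSG00000048583.16, chromosome 7), the paternally expressed growth factor, stood at 41.1, 41.3, 38 and 37.7 TPM in iKO and at 27.1, 39.1, 28 and 31.9 TPM in WT. The library WT 2 lay inside the range of iKO and the other 3 WT libraries below it. Igf2 rose from 31.5 ± 5.46 to 39.5 ± 1.94 TPM (SD, n = 4), which is 0.33 on the log2 scale (SE 0.104, adjusted p = 0.0258), and this call was lost without iKO 1 (limma, adjusted p = 0.0622), iKO 2 (0.0628), WT 1 (0.0640) or WT 3 (0.0669). The authors' deposited table gave Igf2 a log2 fold change of -0.07 with an adjusted p of 0.578, which differs in sign. H19, the maternally expressed noncoding RNA beside Igf2, held 3.07, 3.14, 3.26 and 4.63 TPM in iKO and 2.38, 3.46, 3.51 and 4.37 TPM in WT. The groups overlapped and H19 did not pass (log2 fold change 0.04, SE 0.158, adjusted p = 0.866). On the log2 scale, H19 minus Igf2 was -3.18 ± 0.274 in iKO and -2.88 ± 0.273 in WT (SD, n = 4; exact permutation p = 0.171, adjusted over 6 pairs 0.257).

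Igf2r, the maternally expressed receptor that clears IGF2, and Airn, the paternal noncoding RNA transcribed across the start of Igf2r on the opposite strand, lie together on chromosome 17. Igf2r was at 3.05, 3.24, 3.21 and 2.89 TPM in iKO and 3.70, 3.90, 3.63 and 3.76 TPM in WT. Airn was at 8.64, 8.49, 10.6 and 8.16 TPM in iKO and 6.90, 7.55, 6.30 and 5.46 TPM in WT. Neither gene's groups overlapped, and they went in opposite directions. Igf2r fell by 0.21 on the log2 scale (SE 0.0651, adjusted p = 0.0222), a call lost without iKO 1 (limma, adjusted p = 0.0511), iKO 4 (0.0589) or WT 2 (0.0549), with trimmed mean factors (0.0669) and with quantile normalization (0.269). Airn rose by 0.40 (SE 0.106, adjusted p = 0.0113). For the pair, the authors' deposited table gave -0.20 for Igf2r (adjusted p = 0.0202) and 0.22 for Airn (adjusted p = 0.357). The exons of the pair do not overlap in the GENCODE annotation.

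The Dlk1-Meg3 cluster on chromosome 12 makes noncoding RNAs from the maternal copy and the growth regulator DLK1 from the paternal copy. Rian (ENSMUSG00000097451.11), a host of small nucleolar RNAs, stood at 25.1, 23.7, 20.7 and 23.7 TPM in iKO and at 14.2, 13.8, 18.5 and 16.1 TPM in WT. All iKO values lay above all WT values, and Rian rose from 15.6 ± 2.15 to 23.3 ± 1.83 TPM (SD, n = 4; a log2 change of 0.55, SE 0.0946, adjusted p = 0.00117). Meg3, made from the same strand and among the most abundant RNAs of these cells (91st of all genes by mean TPM), was at 1105, 1035, 1059 and 1068 TPM in iKO and 1093, 1136, 1149 and 1153 TPM in WT. Its ranges overlapped through WT 1 and iKO 1. Meg3 fell by 0.09 on the log2 scale (SE 0.0235, adjusted p = 0.0132), a call lost with trimmed mean factors (limma, log2 fold change -0.02, adjusted p = 0.580) and with quantile normalization (-0.06, adjusted p = 0.112), and the authors' deposited table gave 0.01.

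Mirg, the third noncoding RNA of the cluster and a host of microRNAs, held 3.59, 4.25, 2.89 and 4.0 TPM in iKO and 1.97, 2.17, 2.71 and 3.52 TPM in WT. The groups overlapped through WT 4 and iKO 3. The log2 fold change of 0.39 did not pass (SE 0.150, adjusted p = 0.0529), but did so without iKO 3 (limma, log2 fold change 0.48, adjusted p = 0.0309), without WT 4 (0.51, 0.0136), with trimmed mean factors (0.45, 0.0336) and with quantile normalization (0.52, 0.0168). Meg3 minus Rian on the log2 scale was 5.46 ± 0.0997 in iKO and 6.10 ± 0.163 in WT (SD, n = 4), without overlap, a difference of -0.64. The exact permutation p was 0.0286, the smallest that 4 against 4 allows, and 0.171 after adjustment over the 6 pairs of neighbours compared. A single pair at that smallest p cannot pass over 6 pairs, so the adjusted value does not decide whether the pair differed. Dlk1 was below the filter, at 0.296, 0.0924, 0.409 and 0.0659 TPM in iKO and 0.822, 0.686, 0.494 and 0.523 TPM in WT. All iKO values lay below all WT values (exact permutation p = 0.0286), and the exact permutation p was 0.0571 without any single WT library. Without any single iKO library the p was 0.0286, and the groups stayed apart in each case.

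**Figure D2:**
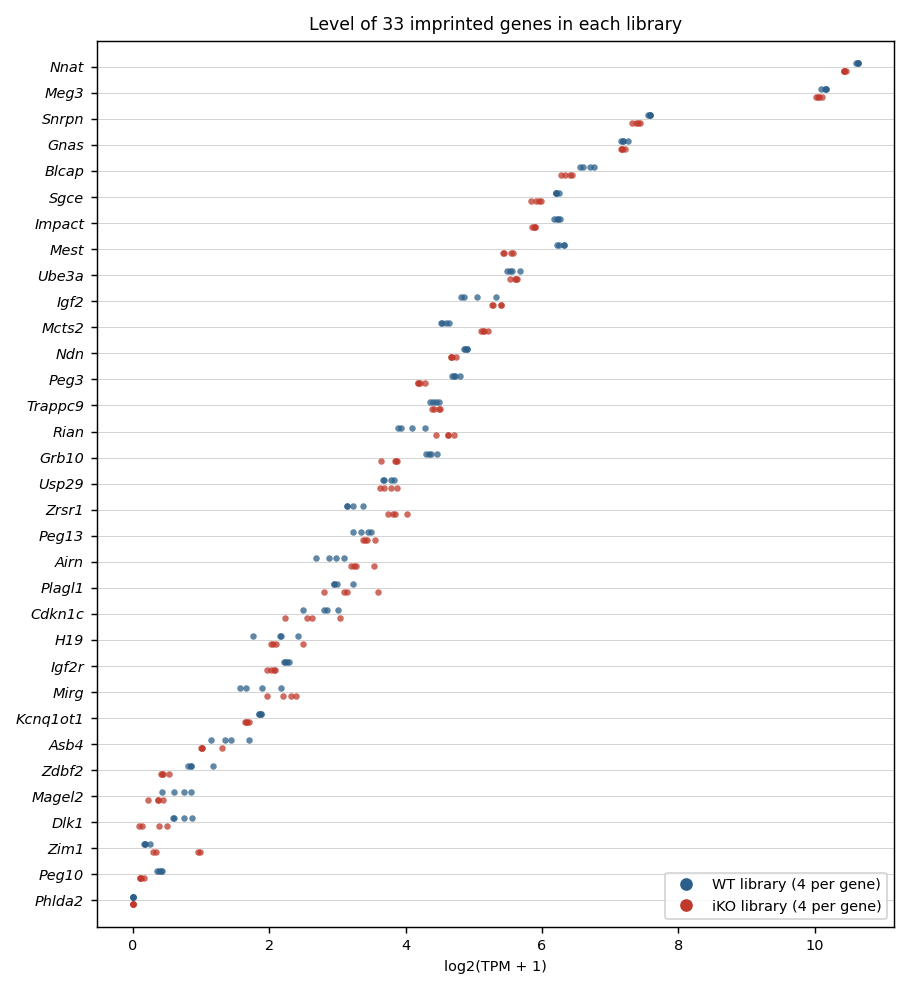
Level of each of the 33 imprinted genes on a log2(TPM + 1) axis, ordered by mean, with 1 point for each of the 4 WT libraries (blue) and 4 iKO libraries (red). Nnat and Meg3 lie farthest to the right, the genes below the filter lie at the bottom left, and Phlda2 is at 0.

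The 2 imprinted genes with the highest log2 fold changes among the 27 tested arose by retroposition, and both sit inside other genes. Mcts2 (ENSMUSG00000042814.8, chromosome 2), a paternally expressed, single-exon copy of the translation factor gene Mcts1, lies in an intron of H13. Its levels were 33.5, 34.1, 34.4 and 36.0 TPM in iKO and 23.0, 23.8, 22.0 and 22.2 TPM in WT. The 4 iKO libraries were all above the 4 WT libraries. Mcts2 rose from 22.7 ± 0.812 to 34.5 ± 1.05 TPM (SD, n = 4; a log2 change of 0.58, SE 0.0399, adjusted p = 4.58e-06). The longest transcripts of Mcts2 and Mcts1 match at 83.8% identity, and Mcts1 stood at 44.3 TPM in iKO against 46.7 TPM in WT (adjusted p = 0.493). H13, a signal peptide peptidase gene, rose by less, from 128 to 136 TPM (log2 fold change 0.09, adjusted p = 0.0264).

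Zrsr1 (ENSMUSG00000044068.7, chromosome 11), a paternally expressed, single-exon copy of the splicing factor gene Zrsr2, lies inside Commd1 on the opposite strand. The iKO libraries held 13.1, 15.2, 13.3 and 12.4 TPM and the WT libraries 8.32, 7.79, 9.39 and 7.83 TPM. Every iKO value was higher than every WT value. Zrsr1 rose from 8.33 ± 0.744 to 13.5 ± 1.21 TPM (SD, n = 4; a log2 change of 0.64, SE 0.0784, adjusted p = 0.000166). Commd1, a copper metabolism gene, rose from 229 to 408 TPM (log2 fold change 0.83, adjusted p = 8.82e-07). Exons of Commd1 and Zrsr1 overlap, by an extent that was not measured. Since no source used here states a strand-aware count, reads from the overlap cannot be assigned to either gene. Zrsr2 itself rose from 9.44 to 13 TPM (log2 fold change 0.41, adjusted p = 0.0143). Mcts1 and Zrsr2 were looked up after the values of their copies had been seen.

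**Figure D3:**
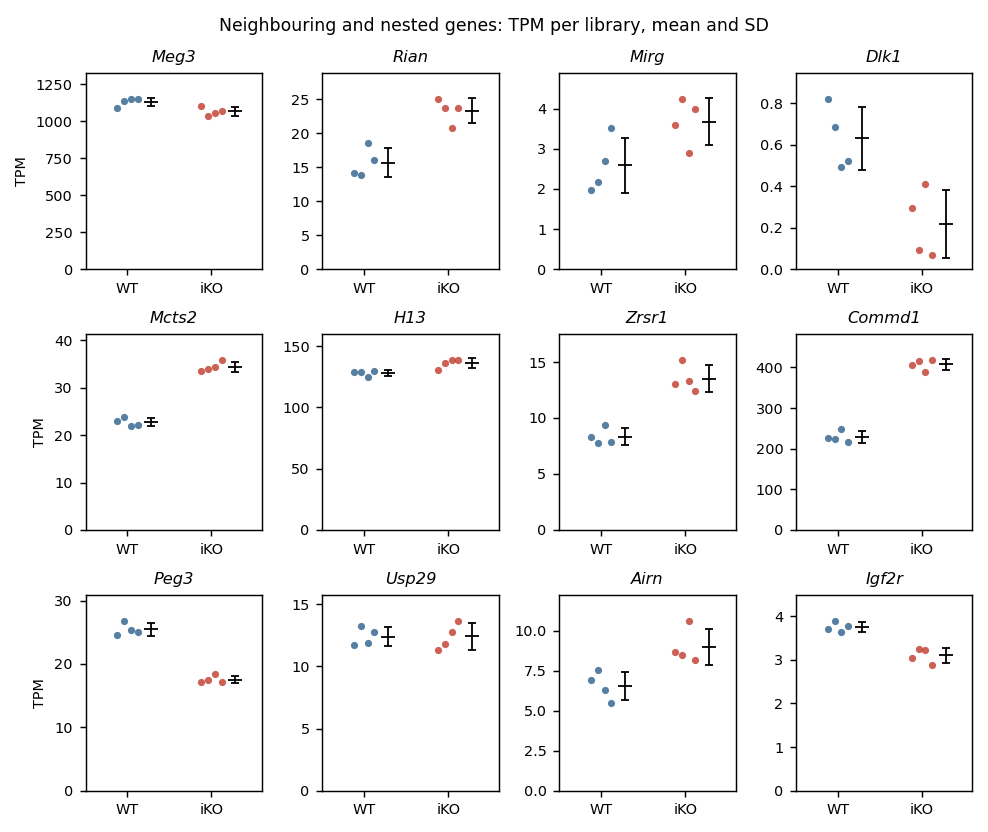
TPM in each library (points) with the mean and SD (bars, n = 4) of 12 neighbouring or nested genes, WT in blue on the left and iKO in red on the right of each panel, each axis starting at 0. The points of Mcts2, Zrsr1 and Commd1 lie higher in iKO and those of Peg3 and Igf2r lower, while those of Usp29, at 11.3 to 13.7 TPM, overlap.

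Nnat (ENSMUSG00000067786.16, chromosome 2), a paternally expressed gene for a small membrane protein of developing brain, was the most abundant imprinted gene and the 59th of all genes by mean TPM. It stood at 1412, 1383, 1376 and 1378 TPM in iKO and at 1592, 1584, 1559.8 and 1584 TPM in WT. The groups were tight and stood apart. Nnat fell by 0.19 on the log2 scale (means 1387 ± 16.8 and 1580.1 ± 14.1 TPM, SD, n = 4; SE 0.0119, adjusted p = 2.85e-06). Blcap, whose intron holds Nnat on the opposite strand and whose allele of origin depends on the isoform in brain, was at 80.1, 76.8, 84.0 and 86.1 TPM in iKO and 103, 107, 92.7 and 96.2 TPM in WT. Again no iKO value reached the WT range, and Blcap fell by 0.28 (SE 0.0528, adjusted p = 0.00188). A near-identical pseudogene of Blcap, Gm3852 (97.7% identity), could share its reads, and the sum of both was still apart, at 76.8 to 86.1 TPM against 92.7 to 107 TPM. The groups overlapped for Nnat minus Blcap (4.07 ± 0.0802 and 3.97 ± 0.0841, SD, n = 4; exact permutation p = 0.171).

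Of the genes of the Prader-Willi and Angelman cluster on chromosome 7, Snrpn, a paternally expressed splicing protein gene, held 172, 169, 166 and 159 TPM in iKO and 187, 191, 190.4 and 191 TPM in WT. Ndn, a paternally expressed gene for a protein that restrains proliferation and protects neurons, held 25.7, 24.4, 24.5 and 24.4 TPM in iKO and 28.3, 29.0, 28.9 and 28 TPM in WT. For both genes every iKO library was below every WT library. Snrpn fell by 0.19 on the log2 scale (SE 0.0262, adjusted p = 0.000323) and Ndn fell by 0.20 (SE 0.0343, adjusted p = 0.00124). They fell by like amounts, with Snrpn minus Ndn at 2.70 ± 0.0387 in iKO and 2.69 ± 0.0233 in WT (SD, n = 4; exact permutation p = 0.743). Snurf, which shares the transcript of Snrpn, was listed at 0 in all libraries, so the value of Snrpn may stand for both.

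Ube3a, a ubiquitin ligase gene made from the maternal copy in neurons and from both copies in most other cells, was at 47.4, 48.0, 45.2 and 48.4 TPM in iKO and 45.1, 43.8, 50 and 46.3 TPM in WT. The groups overlapped and Ube3a did not pass (log2 fold change 0.03, SE 0.0455, adjusted p = 0.617). Snhg14, the paternal RNA that runs across Ube3a on the opposite strand, fell from 211 to 171 TPM (log2 fold change -0.30, adjusted p = 3.73e-05). Exons of Snhg14 and Ube3a overlap, by an extent that was not measured, and reads from the overlap cannot be assigned to either gene. Magel2, a paternally expressed gene for a regulator of ubiquitin ligases, was below the filter, at 0.282, 0.284, 0.353 and 0.164 TPM in iKO and 0.519, 0.344, 0.683 and 0.809 TPM in WT. Its groups overlapped through WT 2 and iKO 3 (exact permutation p = 0.0571, and 0.0286 without WT 2). Not every gene of this cluster was lower. In the authors' deposited table Mkrn3 (log2 fold change -0.02, adjusted p = 0.856) and Peg12 (0.01, 0.903) were not called. Atp10a was not called there either (-0.02, 0.964), while Snhg14 was called lower (-0.23, 4.82e-08).

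On chromosome 6, Sgce, the paternally expressed epsilon-sarcoglycan gene, was at 56.2, 62.2, 59.3 and 61.3 TPM in iKO and 72.6, 73.1, 72.7 and 74.8 TPM in WT. Peg10, a paternally expressed gene of retrotransposon origin that starts beside Sgce, was at 0.0719, 0.0730, 0.116 and 0.0860 TPM in iKO and 0.345, 0.335, 0.296 and 0.278 TPM in WT. Both genes were lower in all iKO libraries. Sgce fell by 0.29 on the log2 scale (SE 0.0357, adjusted p = 0.000157), and Peg10, below the filter, had an exact permutation p of 0.0286. Asb4, a maternally expressed gene for a substrate adaptor of ubiquitin ligases in the same cluster, held 1.02, 1.0, 1.02 and 1.46 TPM in iKO and 1.70, 2.24, 1.54 and 1.21 TPM in WT. Only WT 4 and iKO 4 made its groups overlap. The log2 fold change of -0.32 did not pass (SE 0.136, adjusted p = 0.0767), and without WT 4 it did (limma, -0.41, adjusted p = 0.0339).

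Further genes of this cluster, from a list of 55 other genes described as imprinted in the mouse, were also lower. Ppp1r9a, a neuronal actin-binding protein gene, fell from 25.1 ± 1.96 to 15.1 ± 1.52 TPM (log2 fold change -0.70, adjusted p = 0.000101), and Casd1, a sialic acid acetyltransferase gene, from 18.3 ± 2.31 to 10.9 ± 1.56 TPM (-0.70, adjusted p = 0.000657; SD, n = 4). Pon2, a paraoxonase gene, fell from 134.8 ± 6.66 to 101 ± 2.80 TPM (-0.41, adjusted p = 2.91e-05). Its neighbour Pon3 did not pass (11.9 TPM in iKO against 9.99 TPM in WT, adjusted p = 0.245).

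In the Kcnq1 cluster on chromosome 7, Kcnq1ot1, the paternal noncoding RNA that runs inside Kcnq1, stood at 2.18, 2.16, 2.11 and 2.25 TPM in iKO and 2.59, 2.61, 2.66 and 2.69 TPM in WT. The groups were tight and apart, and Kcnq1ot1 fell by 0.20 on the log2 scale (SE 0.0669, adjusted p = 0.0349). This call was lost when any single library was left out (limma, adjusted p from 0.0538 without iKO 4 to 0.0782 without iKO 3), and with trimmed mean factors (0.0949) or quantile normalization (0.433). The authors' deposited table gave Kcnq1ot1 a log2 fold change of -0.19 with an adjusted p of 3.61e-10. Kcnq1, the potassium channel gene on the opposite strand with overlapping exons, rose from 1.89 to 3.41 TPM (log2 fold change 0.61, adjusted p = 0.000375). Reads from that overlap, whose extent was not measured, cannot be assigned to Kcnq1 or Kcnq1ot1. Transcripts of many other loci match stretches of Kcnq1ot1 at up to 91.4% identity and could share its reads. Cdkn1c, the maternally expressed inhibitor of cyclin-dependent kinases, was at 4.83, 5.18, 3.71 and 7.22 TPM in iKO and 6.16, 7.01, 4.63 and 5.96 TPM in WT, overlapping widely, and did not pass (-0.17, SE 0.171, adjusted p = 0.426). Phlda2, a maternally expressed growth restrainer known from placenta, was listed at 0 in all 8 libraries. Cd81, a tetraspanin gene of the same cluster, fell from 2892 to 1693 TPM (log2 fold change -0.77, adjusted p = 1.09e-07). Ascl2, a transcription factor gene, fell from 2.10 to 0.603 TPM (-0.96, adjusted p = 0.000190). Whether Cd81 and Ascl2 are imprinted in these cells was not measured. Of other genes of this cluster, the authors' deposited table did not call Tssc4 (log2 fold change 0.03), Nap1l4 (0.0015) or Osbpl5 (-0.07). It called Tspan32 lower (-1.47, adjusted p = 0.00525).

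Impact, a paternally expressed inhibitor of the translational stress kinase GCN2, known from neurons, stood at 58.7, 58.3, 56.5 and 57.8 TPM in iKO and 71.1, 75.7, 73.6 and 73.9 TPM in WT. No iKO library came near the WT range, and Impact fell by 0.34 on the log2 scale (SE 0.0289, adjusted p = 1.65e-05). Zdbf2, a paternally expressed gene of chromosome 1 that is active in brain, was below the filter, at 0.356, 0.330, 0.434 and 0.346 TPM in iKO and 0.744, 0.811, 1.26 and 0.796 TPM in WT. All iKO values were lower (exact permutation p = 0.0286). Plagl1, a paternally expressed zinc finger gene that restrains proliferation and regulates other imprinted genes, was at 7.51, 5.98, 11.0 and 7.83 TPM in iKO and 6.75, 8.34, 6.98 and 6.71 TPM in WT. The iKO libraries spread around the WT ones, and Plagl1 did not pass (log2 fold change 0.13, SE 0.152, adjusted p = 0.517).

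Gnas, the gene of the stimulatory G protein alpha subunit, whose parental origin depends on the isoform, held 149, 142, 143 and 144 TPM in iKO and 152, 141, 145 and 145 TPM in WT. The groups overlapped and Gnas did not pass (log2 fold change -0.02, SE 0.0279, adjusted p = 0.635), while the authors' deposited table gave 0.13 with an adjusted p of 0.000563. Peg13, a paternal noncoding RNA in an intron of Trappc9, was at 8.32 to 10.7 TPM over all 8 libraries (log2 fold change 0.06, SE 0.0723, adjusted p = 0.515). Trappc9, a maternally biased trafficking gene in brain, was at 19.5 to 21.7 TPM (0.02, SE 0.0477, adjusted p = 0.712). Neither gene of that pair separated the groups.

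The 6 imprinted genes below the filter were Dlk1, Zim1, Magel2, Peg10, Zdbf2 and Phlda2. For 4 of them the groups did not overlap, lower in iKO for Dlk1, Peg10 and Zdbf2 and higher for Zim1, beside 13.6% of the genes above 0 that missed the filter. In a limma fit without the filter, where 32.2% of 29490 genes were called, Peg10 (adjusted p = 0.00412), Zdbf2 (adjusted p = 0.00869) and Dlk1 (adjusted p = 0.0258) passed, and Magel2 (adjusted p = 0.0604) and Zim1 (adjusted p = 0.0864) did not. The authors' deposited table gave log2 fold changes of -1.77 for Peg10, -1.04 for Zdbf2, -1.08 for Magel2 and 0.95 for Zim1, all called there, and -1.20 for Dlk1 (adjusted p = 0.0983).

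Each gene was classed by the parental origin generally described for it, which was not measured in these cells. Ube3a and Trappc9 were counted as maternally expressed. By this class, 12 of 15 tested paternally expressed genes changed (4 rose and 8 fell). So did 3 of 9 maternally expressed genes (Rian rose, and Igf2r and Meg3 fell). Of 3 genes whose origin depends on the isoform, 2 changed (Grb10 and Blcap fell). Of all tested genes 52.6% changed, 20.7% up and 31.9% down. The median log2 fold change was -0.19, 0.02 and -0.28 in these groups, against -0.06 over all tested genes, and the difference between the groups was not tested. Paternally expressed genes thus moved in both directions. By role, 2 of 7 tested noncoding RNAs rose (Airn and Rian) and 2 fell (Meg3 and Kcnq1ot1). The summed level of all 33 genes was 3264 to 3368 TPM in iKO against 3611 to 3675 TPM in WT, or 0.326% to 0.337% and 0.361% to 0.368% of all TPM. Nnat and Meg3 made up most of it, at 2418 to 2517 TPM and 2685 to 2736 TPM.

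The authors' deposited table held a fold change for 32 of the 33 genes. It called 19 of them at an adjusted p under 0.05, with 5 higher and 14 lower, where it called 33.9% of 29438 genes. These 29438 include genes below the filter used here, so that share and the 52.6% of 16413 genes have unlike bases. Of the 17 calls made here, 14 were calls of the same direction in the authors' deposited table, and those of Igf2, Airn and Meg3 were not. Both come from the same libraries. Calls that kept their direction with trimmed mean factors, with quantile normalization and in the authors' deposited table numbered 12, with Rian, Mcts2 and Zrsr1 higher and Peg3, Snrpn, Ndn, Mest, Grb10, Nnat, Blcap, Sgce and Impact lower. These 12, with Airn and Meg3, were also called with each library left out in turn. The exon overlaps of Zrsr1 with Commd1 and of Mest with Copg2 limit these calls as well.

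**Figure D4:**
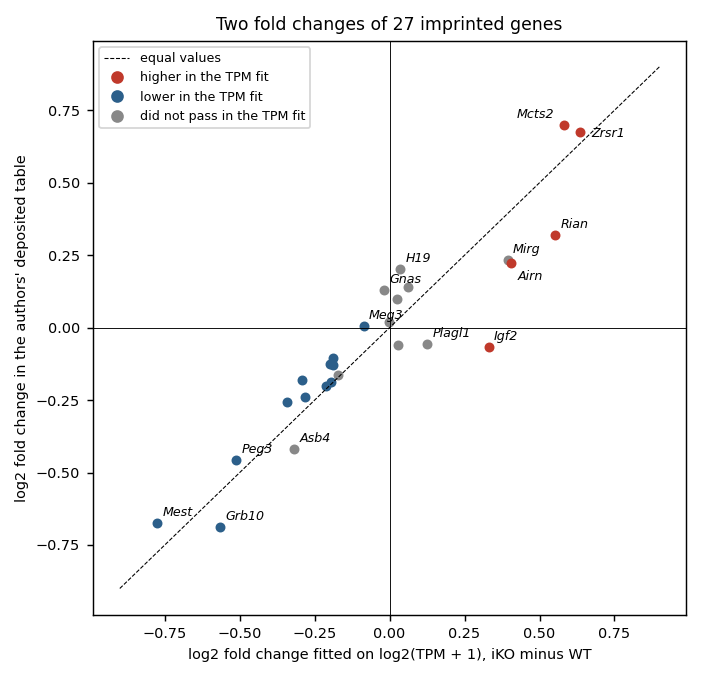
Log2 fold change in the authors' deposited table against the one fitted on log2(TPM + 1) for the 27 imprinted genes tested, coloured by the TPM call, with a dashed line of equal values. Mest, Grb10 and Peg3 lie lowest and Mcts2, Zrsr1 and Rian highest on both axes, and Igf2 lies on different sides of 0.

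Genes that set or read imprints were counted from a list of 24, of which 19 were tested. In iKO 2 rose and 4 fell, a called share of 31.6% beside 52.6% of all tested genes. Zfp57, the zinc finger gene that maintains methylation at imprinted control regions, fell from 232 ± 12.1 to 165 ± 11.9 TPM (SD, n = 4; a log2 change of -0.49, SE 0.0546, adjusted p = 8.22e-05). Arid4b, whose product has been linked to the Prader-Willi control region, fell from 125 to 99.6 TPM (-0.33, adjusted p = 1.24e-05), Uhrf1, which brings DNMT1 to newly copied DNA, from 47.5 to 40.6 TPM (-0.22, adjusted p = 0.00240), and Setdb1, a histone H3 lysine 9 methyltransferase gene, from 37.9 to 35.1 TPM (-0.11, adjusted p = 0.0289). Tet1, which oxidizes methylated cytosine, rose from 17.3 to 24.8 TPM (0.49, adjusted p = 0.00777), and the DNA methyltransferase gene Dnmt3b from 2.30 to 2.98 TPM (0.27, adjusted p = 0.0305). The other 13, among them Dnmt1, Trim28, Zfp445 and Ctcf, did not pass. The authors' deposited table called 13 of the list, where it called 33.9% of its genes, but not Setdb1 (log2 fold change -0.01, adjusted p = 0.831). Its 33.9% also covers genes below the filter used here and has another base than the 52.6%. Of the genes that did not pass here, that table called Ctcf (0.26, adjusted p = 9.61e-08), Dnmt1 (0.07, adjusted p = 0.0184) and Zfp445 (0.06, adjusted p = 0.0332) higher. It also called Tet2, Tet3, Smchd1 and Eed higher and Dnmt3a lower.

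Of 17 genes of the IGF pathway around Igf2, 15 were tested, 4 rose, 7 fell (beside 20.7% and 31.9% of all tested genes) and 4, the growth factor gene Igf1 and the receptor gene Igf1r among them, did not pass. The binding protein gene Igfbp3 fell from 31.8 ± 1.64 to 14.9 ± 0.603 TPM (SD, n = 4; log2 fold change -1.04, adjusted p = 5.12e-07), and Igfbp2 rose from 444.5 ± 7.16 to 534 ± 9.66 TPM (0.26, adjusted p = 4.65e-06). Insr, the insulin receptor gene, rose from 52.7 to 65.9 TPM (0.32, adjusted p = 8.55e-05), and Irs2, an adaptor gene of that receptor, fell from 13.9 to 9.94 TPM (-0.44, adjusted p = 0.000145). The genes Igf2bp1 and Igf2bp3, for proteins that bind Igf2 and other messenger RNAs, fell from 2.97 to 0.478 TPM (-1.40, adjusted p = 0.000107) and from 13.4 to 6.36 TPM (-0.97, adjusted p = 0.000192). Binding protein genes of the pathway thus moved in both directions.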

How the data were processed

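The deposited values were TPM for 55385 genes in 8 libraries made by Smart-Seq2 and paired-end sequencing, per the labels' protocols. Each TPM column summed to 1000000, so TPM keeps no sequencing depth and the depth of each library is unknown. The authors' deposited comparison of iKO with WT held, per the file headers, a mean normalized signal, a test score, p-values, and log2 fold changes with standard errors. For the aligner, the quantifier and the build, a name is not given in the sources used here.

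Groups came from the sample titles. The 16413 genes with 1 TPM or more in 4 or more libraries were fitted on log2(TPM + 1) with limma 3.58.1 in R 4.3.3 (trend, robust), iKO minus WT. This scale understates the change of low genes. P-values were two-sided and Benjamini-Hochberg adjusted over all genes fitted, with a threshold of 0.05. Genes below the filter, and differences between neighbours, were tested by exact permutation over the 70 assignments of all 8 libraries, whose smallest p is 0.0286. In a simulation with 16413 genes, 42% of genes changed by 0.25 log2 units were recovered, 76% at 0.5, 90% at 1 and 100% at 2, and 0.0493% of unchanged genes were called. Only a small part of the genes was changed there, drawn from those of higher level, with noise independent between genes. In the data 52.6% of the genes tested were called, so these rates need not hold for the data.

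Exons, overlaps and copies came from GENCODE M21 (GRCm38, 99.6% of gene IDs matched) and blastn 2.17.0, which may not be the annotation behind the TPM. Exons of Igf2, Usp29 and Gnas also overlap those of Igf2os, Zim3 and Nespas on the opposite strand. Figures used matplotlib 3.10.9 in Python 3.11.15. The imprinted genes and the gene lists were chosen with earlier results of these data known. All 33 were named; of the other lists, the text could name called genes in a cluster of theirs and up to 8 others (6 for the regulators and the IGF list) by lowest unadjusted p. The alternatives tried were the deposited comparison, the sex score, quantile normalization, trimmed mean factors, 0.1 and 5 as pseudocounts, a replicate block, each library left out, and, as the filter, none or a mean of 5 TPM.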

Additional observations from a re-analysis of the deposited data

Results flagged for a closer look

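In 5 of 64 groups of 4 libraries, 1 library stood apart from the other 3 farther than Dixon's test allows for the range of its group, which chance gives in about 1 of 20 groups. H19 was 4.63 TPM in iKO 4 and 3.07 to 3.26 TPM in the other iKO libraries. Ndn was 25.7 TPM in iKO 1, with the others at 24.4 to 24.5 TPM. Plagl1 was 8.34 TPM in WT 2, with the others at 6.71 to 6.98 TPM. Asb4 was 1.46 TPM in iKO 4 and at most 1.02 TPM elsewhere in iKO. Zdbf2 was 1.26 TPM in WT 3 and 0.744 to 0.811 TPM in the other WT libraries.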

How the results depend on the processing

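The depth of each library is unknown, so no floor can be set for genes listed near 0, and 2 groups whose sex scores do not overlap limit what a covariate can show. With the sex score as covariate limma called 423 genes (195 higher, 228 lower), 0 imprinted genes in either direction, 2 of the other imprinted genes and 0 of the imprint regulators; the cause was not tested. The authors' deposited table called 13 imprint regulators against 6 here. The replicate numbers did not pair the libraries (same-number correlations -0.0445 to 0.000694, each below the best with another number), and a replicate block called 8097 genes, with 5 imprinted genes higher and 10 lower, leaving out Igf2r (adjusted p = 0.0634) and Kcnq1ot1 (adjusted p = 0.0946). Leaving out each library in turn gave 7942 to 8216 genes called, 4 to 6 imprinted genes higher and 10 to 12 lower. It also gave 18 to 21 other imprinted genes and 4 to 6 regulators. The neighbour pairs numbered 0, where the adjustment over 6 pairs kept a single pair from passing. Genes below the filter with an exact p under 0.05 numbered 2 to 4, and 2 (Peg10 and Zdbf2) without WT 1, WT 3 or WT 4. With 1 library left out the groups were of unequal size and the permutation test was not symmetric. Signs turned in the authors' deposited table for Igf2 (-0.067), Meg3 (0.0061), Usp29 (0.0206), Ube3a (-0.06), Plagl1 (-0.0564) and Gnas (0.13), with the sex score for Meg3 (0.0776), Usp29 (0.46), Cdkn1c (0.56) and Trappc9 (-0.0014), with trimmed mean factors for Usp29 (0.0637) and Gnas (0.0529), with quantile normalization for Usp29 (0.0909), and with a pseudocount of 0.1 for Peg10 minus Sgce (-0.85). With 1 library left out, H19 ran from -0.0877 to 0.13, Usp29 from -0.0468 to 0.0376, Plagl1 from -0.0184 to 0.24, Gnas from -0.0319 to 0.0038, Trappc9 from -0.0002 to 0.0455, Peg10 minus Sgce from -0.0034 to 0.0444 and Snrpn minus Ndn from -0.0064 to 0.0246.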

Other observations

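The other imprinted genes are described as imprinted in the mouse, and whether they are imprinted in these cells was not measured. Of 52 found in the table, 34 were tested, 6 rose and 15 fell (61.8% called, beside 52.6% of all tested genes). Their median log2 fold change was -0.10 (-0.06 over all tested genes). Outside the clusters described above, Bcl2l1, an inhibitor of apoptosis, fell from 301 ± 6.80 to 184 ± 10.4 TPM (SD, n = 4; limma, log2 fold change -0.71, adjusted p = 1.13e-06), and Dhcr7, the last enzyme of cholesterol synthesis, rose from 120.3 ± 1.23 to 151 ± 2.98 TPM (0.32, adjusted p = 4.15e-06). Phactr2, an actin and phosphatase regulator gene, fell from 16.4 to 10.6 TPM (-0.58, adjusted p = 5.83e-06). Nap1l5, a paternally expressed, intronless gene inside Herc3, fell from 233 to 199 TPM (-0.23, adjusted p = 6.11e-06), while Herc3 stood at 5.18 TPM in iKO against 5.27 TPM in WT (adjusted p = 0.958). Gatm, an enzyme gene of creatine synthesis, fell from 117 to 95.3 TPM (-0.30, adjusted p = 5.52e-05), and Sfmbt2, a Polycomb group gene, from 1.94 to 0.734 TPM (-0.77, adjusted p = 0.000228). Herc3 was looked up after the values had been seen.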
